A study of Mus musculus with 2 samples.

Results

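The 10 genes described here encode a set of signals that recruit, expand and sustain neutrophils and macrophages, with the receptors that read them. They are the chemokines Cxcl1 (ENSMUSG00000029380), Cxcl2 (ENSMUSG00000058427), Cxcl3 (ENSMUSG00000029379) and Cxcl5 (ENSMUSG00000029371), the chemokine receptor Cxcr2 (ENSMUSG00000026180), the colony-stimulating factors Csf1 (ENSMUSG00000014599), Csf2 (ENSMUSG00000018916) and Csf3 (ENSMUSG00000038067), and the receptors Csf3r (ENSMUSG00000028859) and Csf1r (ENSMUSG00000024621). They were chosen by name, 10 of the 32285 genes in the count matrices. Their transcripts were counted in subcutaneous mouse tumours with the 10x Genomics immune profiling assay, which tags each captured mRNA molecule with a cell barcode and a unique molecular identifier (UMI). One group of mice was fed a control diet and the other a diet without serine and glycine, amino acids that feed nucleotide and glutathione synthesis. The number of mice behind each library, their strain, sex and age, and the tumour line are not given in the sources used here. The labels' tissue preparation text describes human heart tissue, while organism, source and design name mouse tumours.

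Each diet had 1 library, so the difference between diets has no replicate check, no test was made, and every interval is an exact 95% interval that covers counting error only. UMIs copied or lost in amplification and cells that share a droplet add to that error. The control library held 161332426 UMIs on 8466 barcodes and the serine/glycine-free library 157234945 UMIs on 7999 barcodes. The libraries shared 104 barcode sequences, 1.23% and 1.30% of their barcodes. Levels are in CPM, the UMIs of a gene scaled to the total UMIs of the class after summing over its cells, and a ratio of 2 such levels is taken as serine/glycine-free over control unless stated otherwise.

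As background, CXCL1, CXCL2, CXCL3 and CXCL5 are secreted chemokines that bind CXCR2, the main chemokine receptor of neutrophils, and draw these cells from blood into inflamed tissue. G-CSF, encoded by Csf3, drives the production and release of neutrophils through the receptor encoded by Csf3r, M-CSF, encoded by Csf1, sustains macrophages through the receptor encoded by Csf1r, and GM-CSF, encoded by Csf2, acts on both lineages. In tumours these ligands can come from malignant cells, fibroblasts and the myeloid cells themselves, and NF-kB is a known activator of the chemokine genes.

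The 4 chemokine genes lie in one cluster on chromosome 5 of the mouse assembly GRCm38, with Cxcl5 at 90759298 to 90761625, Cxcl3 at 90786101 to 90788093, Cxcl1 at 90891245 to 90893121 and Cxcl2 at 90903899 to 90905938. RefSeq promoter sequences (assembly GRCm38.p6) were matched by symbol for 7 of the 10 genes. The 100 bases before the annotated start of 3 chemokine genes, and an upstream window of 100 bases of Csf1, are shown because these genes are followed below and because 9-letter sites of the NF-kB type, in capitals, stand in them. All are written 5′ to 3′ on the strand of the gene.
Cxcl1, chr5:90891145-90891244, plus strand: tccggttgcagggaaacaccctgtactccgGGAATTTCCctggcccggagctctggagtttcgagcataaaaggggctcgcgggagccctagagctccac
Cxcl2, chr5:90903799-90903898, plus strand: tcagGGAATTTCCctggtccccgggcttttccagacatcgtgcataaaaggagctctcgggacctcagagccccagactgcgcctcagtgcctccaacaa
Cxcl3, chr5:90786001-90786100, plus strand: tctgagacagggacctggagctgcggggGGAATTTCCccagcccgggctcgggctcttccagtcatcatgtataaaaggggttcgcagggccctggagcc
Csf1, chr3:107760570-107760669, minus strand: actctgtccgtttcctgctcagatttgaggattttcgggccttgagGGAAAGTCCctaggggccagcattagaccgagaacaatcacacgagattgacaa

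The letters GGAATTTCC stand at -70 to -62 in Cxcl1, at -96 to -88 in Cxcl2 and at -72 to -64 in Cxcl3, counted from the start. On either strand they occur in 0.317% of the 32851 RefSeq promoters of 300 bases that span the start. In Csf1 the capitals are GGACTTTCC read on the opposite strand, at -154 to -146, and 0.344% of promoters hold that motif on either strand. The core letters ACGTG, shared by sites of hypoxia-inducible factors, were found in Cxcl1 at -196 to -192 on the opposite strand and in Cxcl3 at -155 to -150, where matches on both strands overlap, and 19.6% of all promoters hold them. A match is a description of letters and not a measured binding site.

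Cells were sorted into classes by their own UMIs. Neutrophils were cells with S100a8 plus S100a9 at 0.5% or more of UMIs, which gave 48 control and 55 serine/glycine-free cells. Macrophages were cells with C1qa, C1qb and C1qc at 0.1% or more and no Krt20 UMI, 694 and 632 cells. Cells with at least 1 Krt20 UMI and no UMI of Ptprc (CD45, the pan-leukocyte marker) numbered 4121 and 4613, or 49.9% and 58.3% of the cells kept, and stand for the tumour cells. Their keratin signal did not go beyond Krt20 and Krt18: Krt20 itself was at 157.7 and 247.7 CPM and Krt18 at 24.1 and 19.6, while Krt8, Krt19, Epcam and Cldn4 were each below 1 CPM, Krt19 at 0 UMIs in the control library and Epcam and Cldn4 at 0 in the other. A list of 6 fibroblast genes summed to 727 and 999.8 CPM in them. They are therefore called Krt20-positive cells below, after the rule. In the neutrophils Ly6g, a defining marker, was at 0 UMIs in both libraries, and no UMI of 6 epithelial, 4 endothelial or 5 dendritic cell markers was seen. Other lists were not empty there. Of the monocyte markers, Ly6c2 had 29 and 19 UMIs and Plac8 31 and 40, while Ccr2, Chil3 and Vcan had none. The fibroblast list summed to 0 CPM in the control and 865.8 CPM in the serine/glycine-free neutrophils. The neutrophil and macrophage marker lists hold the genes of the rules and had UMIs in most classes, so they are no independent check of the names. Of the neutrophils, 3 control cells and 1 serine/glycine-free cell also met the macrophage rule, and none had a Krt20 UMI. The remaining cells were T and NK cells, cells with both Krt20 and Ptprc, other Ptprc-positive cells, and 2722 and 1916 cells with neither Krt20 nor Ptprc, whose fibroblast list summed to 2032 and 2143 CPM.

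Most genes had one main source in both libraries. Krt20-positive cells held 64.8% of the Cxcl1 UMIs of the control library and 75.3% of those of the serine/glycine-free library. They also held 68% and 74.0% of Csf1 and 70.1% and 70.9% of Csf2. Macrophages held 45.9% and 63.5% of Cxcl2, with neutrophils adding 5.54% and 7.48%. The receptors divided by lineage: neutrophils held 71.1% and 92.2% of the Cxcr2 UMIs, and macrophages held 74.4% and 77.0% of the Csf1r UMIs. Csf3r was split, with 28.0% and 28.5% in neutrophils and 35.8% and 46.4% in macrophages. The class with the largest share differed between the libraries for 2 chemokines. For Cxcl3 it was other Ptprc-positive cells in the control library (48.2%) and neutrophils in the other (47.0%). That rests on few UMIs: 298 in 16 of those control cells, and 185 in all cells of the serine/glycine-free library. For Cxcl5 it was cells with neither marker in the control library (74.0%) and Krt20-positive cells in the other (53.0%). The share of a gene's UMIs in a class moves with the number of cells of the class and their depth as well as with the level per cell.

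**Figure D1:**
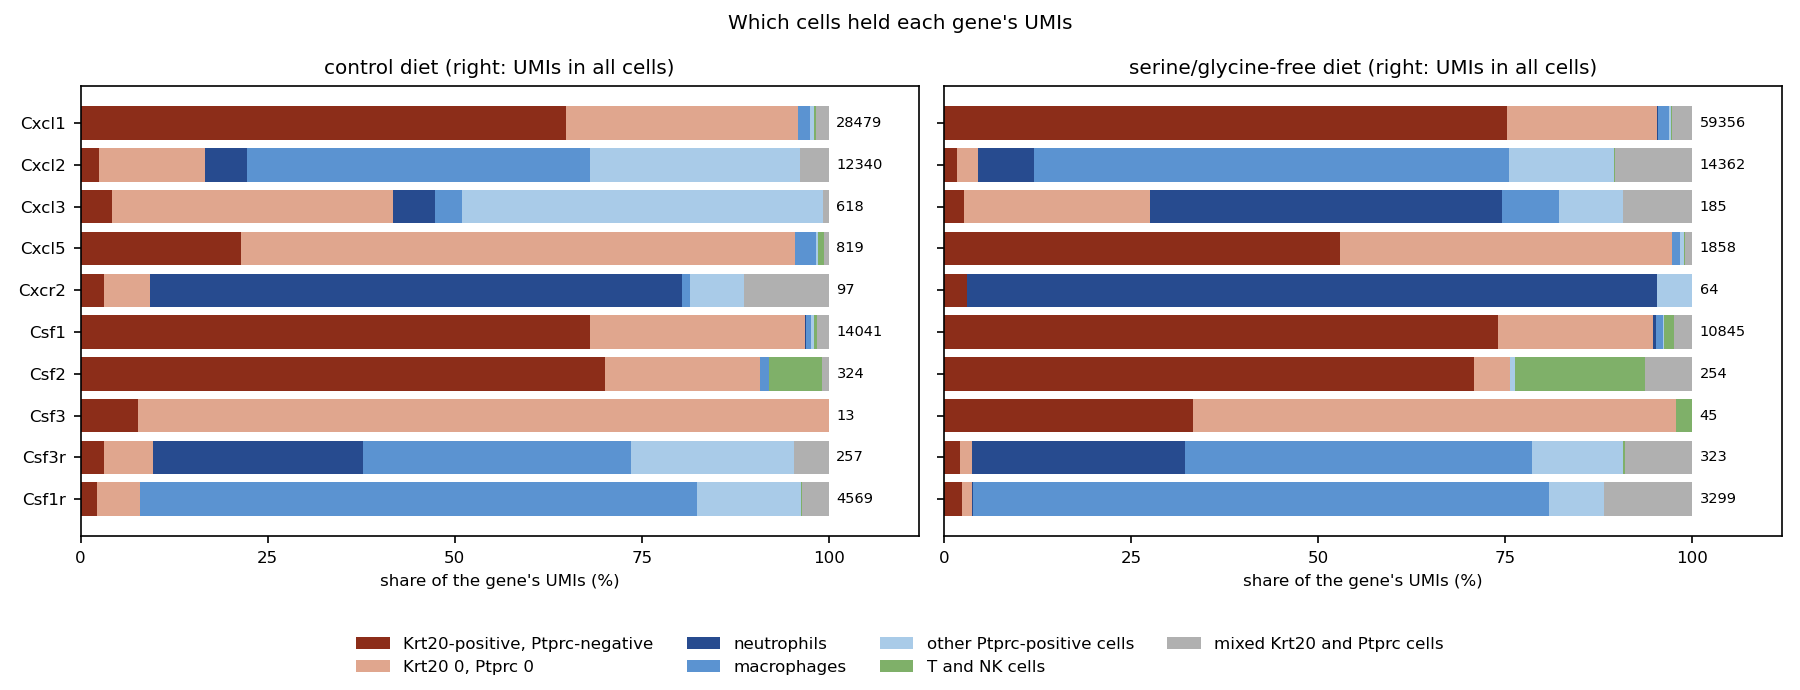
Share of each gene's UMIs (horizontal axis, percent) found in each cell class, control diet left and serine/glycine-free diet right, with the gene's UMIs in all cells printed beside each bar. Cxcl1, Csf1 and Csf2 came mostly from Krt20-positive cells in both libraries, Cxcr2 from neutrophils and Csf1r from macrophages.

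Among the ligands, Cxcl1 in Krt20-positive cells had by far the most UMIs behind its difference between the diets. It stood at 169.9 CPM (167.5 to 172.4) in the control library and at 387 CPM (383 to 390.4) in the serine/glycine-free library, from 18465 and 44670 UMIs. The ratio was 2.28 (2.24 to 2.32). Cells differed widely within each library: when every cell was thinned to 10000 UMIs, 55.2% (53.6 to 56.8) of 3868 control cells and 36.9% (35.4 to 38.4) of 4102 serine/glycine-free cells had no Cxcl1 UMI. At the other end, 3.72% (3.15 to 4.37) and 14.2% (13.1 to 15.3) of cells had 10 or more. The 10% of cells with most Cxcl1 UMIs held 51.6% and 43.1% of them, and the highest single cell 0.422% and 0.237%. Cells too shallow to be thinned, 253 and 511, were left out of those shares; unthinned, 57.0% and 71.0% of all Krt20-positive cells had a Cxcl1 UMI.

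**Figure D2:**
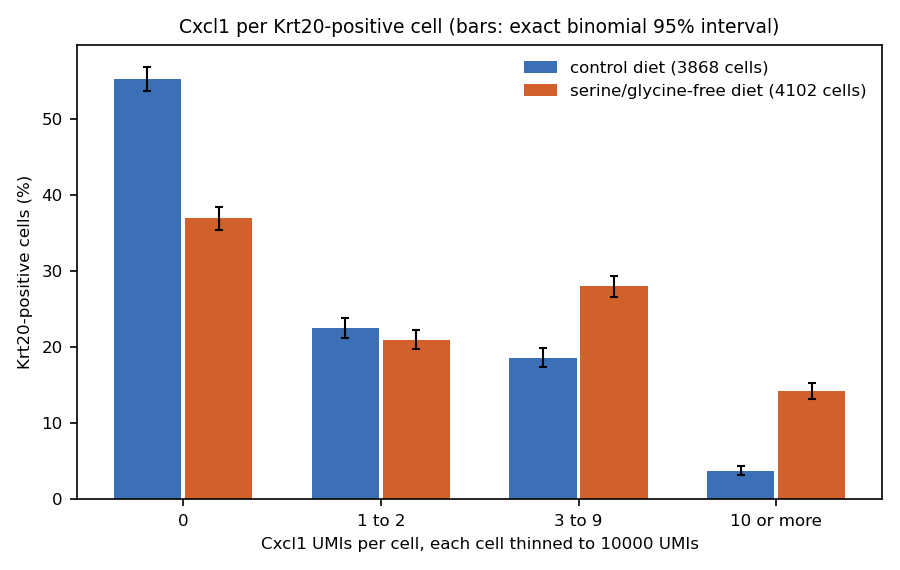
Krt20-positive cells (vertical axis, percent of cells) by the number of Cxcl1 UMIs left after each cell was thinned to 10000 UMIs (horizontal axis), one bar colour per library, with exact binomial 95% intervals. The serine/glycine-free library has fewer cells at 0 (36.9% against 55.2%) and more at 10 or above (14.2% against 3.72%).

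The cells with neither Krt20 nor Ptprc showed Cxcl1 at 226 CPM in the control library and 470.4 CPM in the other, a ratio of 2.08 (2.02 to 2.14). The higher Cxcl1 level of the serine/glycine-free library was therefore not tied to the Krt20 rule, and over all Ptprc-negative cells outside the myeloid rules the sum of the 4 chemokines had a ratio of 2.04. In T and NK cells, which are not known as a source of this chemokine, Cxcl1 went the other way, at 78.7 and 36.7 CPM, and a single cell held 60.6% and 33.7% of those UMIs. After thinning to 1000 UMIs, 0.847% and 0.599% of T and NK cells (median depth 2709 and 5163 UMIs) had a Cxcl1 UMI, against 13.5% and 26.7% of Krt20-positive cells (25087 and 23206 UMIs).

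Cxcl5, which in mice serves CXCR2 from epithelial and stromal cells, was a rare transcript in the same cells. It had 176 UMIs in 84 control cells and 984 UMIs in 253 serine/glycine-free cells. Its level was 1.62 CPM (1.39 to 1.88) against 8.52 CPM (8.0 to 9.07), a ratio of 5.26 (4.48 to 6.21). Of these UMIs, 120 and 799 lay in the 230 and 590 Krt20-positive cells with 30 or more UMIs of the fibroblast genes Lum and Dcn. Within those cells the levels were 19.3 and 55.3 CPM. The part that the different number of such cells has in the ratio of 5.26 was not tested. In the cells with neither Krt20 nor Ptprc, where the control library held 74.0% of its Cxcl5 UMIs, the level was 15.5 and 32.5 CPM and the ratio 2.10 (1.88 to 2.33), so the size of the difference depended on the Krt20 rule. Over all Ptprc-negative cells it was 2.41. The same cells tended to carry both chemokines: after thinning to 10000 UMIs, Cxcl1 was detected in 76.2% (60.5 to 87.9) of the 42 control cells with Cxcl5 and in 44.9% (43.3 to 46.5) of those without. In the serine/glycine-free library the shares were 84.2% (77.3 to 89.7) of 146 cells and 62.1% (60.5 to 63.6).

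Cxcl2 and Cxcl3 were close to absent from Krt20-positive cells. Cxcl2 had 309 and 244 UMIs there, 2.84 and 2.11 CPM, in 33 and 47 cells, and 5 cells held 66.0% and 50.8% of them. Its ratio of 0.743 turned to 3.37 when cells with any S100a8, S100a9 or C1q UMI were left out, so no direction is given for it. Cxcl3 had 26 and 5 UMIs, of which 1 control cell held 19. In the cells with neither Krt20 nor Ptprc, Cxcl2 stood at 44.7 and 16.0 CPM (ratio 0.358, 0.320 to 0.399), from 102 and 27 cells. Myeloid genes differed in that class too. Csf1r was at 6.65 and 1.77 CPM, Ccr2 at 5.47 and 1.74 and Ly6c2 at 31.0 and 21.0. C1qa, at 1.79 and 3.55 CPM, and Plac8, at 172.9 and 304.1, went the other way. The part of myeloid RNA in the Cxcl2 ratio was not tested.

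Among the colony-stimulating factors, Csf1 went against Cxcl1 in direction. It stood at 87.9 CPM (86.1 to 89.7) in control and 69.5 CPM (68 to 71.1) in serine/glycine-free Krt20-positive cells, a ratio of 0.791 (0.768 to 0.815) from 9552 and 8028 UMIs. After thinning to 10000 UMIs, 48.4% (46.8 to 50) and 56.5% (55.0 to 58.0) of cells had no Csf1 UMI. The 10% of cells with most Csf1 UMIs held 34.8% and 39.8% of them. The cells with neither Krt20 nor Ptprc showed the same side, with 103.1 and 88.7 CPM and a ratio of 0.860 (0.817 to 0.906). Csf2 was rare, at 2.09 CPM (1.83 to 2.38) and 1.56 CPM (1.34 to 1.80), a ratio of 0.746 (0.610 to 0.911) from 227 UMIs in 95 cells and 180 UMIs in 91 cells. T and NK cells, a textbook source of GM-CSF, showed Csf2 at 17.4 CPM (11.0 to 26.1) and 18.8 CPM (13.6 to 25.2). Csf3 was nearly absent from the tumours. The control library had 13 Csf3 UMIs in all and the serine/glycine-free library 45, of which Krt20-positive cells held 1 and 15 and the cells with neither marker 12 and 29. With 1 UMI on one side, the ratio in Krt20-positive cells was 14.1 with a counting interval from 2.17 to 594.

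Read against all genes, 15.1% of the 16142 genes with at least 20 UMIs differed by 1.5-fold or more between the diets in Krt20-positive cells. Of the 10 members 7 had that many UMIs, and 3 of them passed the fold: Cxcl1 and Cxcl5 were higher and Cxcl3 was lower in the serine/glycine-free library. The Cxcl3 ratio of 0.181 did not hold: it was 0.93 once doublet scores above 0.25 were left out, 1.01 with 3 or more Krt20 UMIs and 1.20 without cells that had any S100a8, S100a9 or C1q UMI. The median of the 7 was -0.42 on the log2 scale, beside -0.05 over all genes. Of 16 measured genes of a list of inflammatory and NF-kB genes, 7 were higher by that fold and none lower, with a median log2 ratio of 0.47. They included Nfkbia, the NF-kB inhibitor that NF-kB itself induces, at 255 and 631 CPM (ratio 2.47, 2.44 to 2.51), and Cebpd, a transcription factor of the acute phase response, at 86.9 and 369 CPM (ratio 4.24, 4.15 to 4.34). Cebpb and Nfkb2 did not reach the fold, with ratios of 1.47 and 1.16. Of 8 measured hypoxia genes 6 were higher and none lower, and of 8 matrix genes 2 were higher (Mmp3 and Mmp13, which encode matrix-degrading enzymes) and none lower. Of 12 measured ligands and receptors related to the members, 4 were higher and 1 lower. Il34, the second ligand of the Csf1r receptor, stood at 39.9 and 60.9 CPM (ratio 1.53, 1.47 to 1.59), the opposite side from Csf1, while Kitl, the stem cell factor, had a ratio of 1.12 (1.09 to 1.16).

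**Figure D3:**
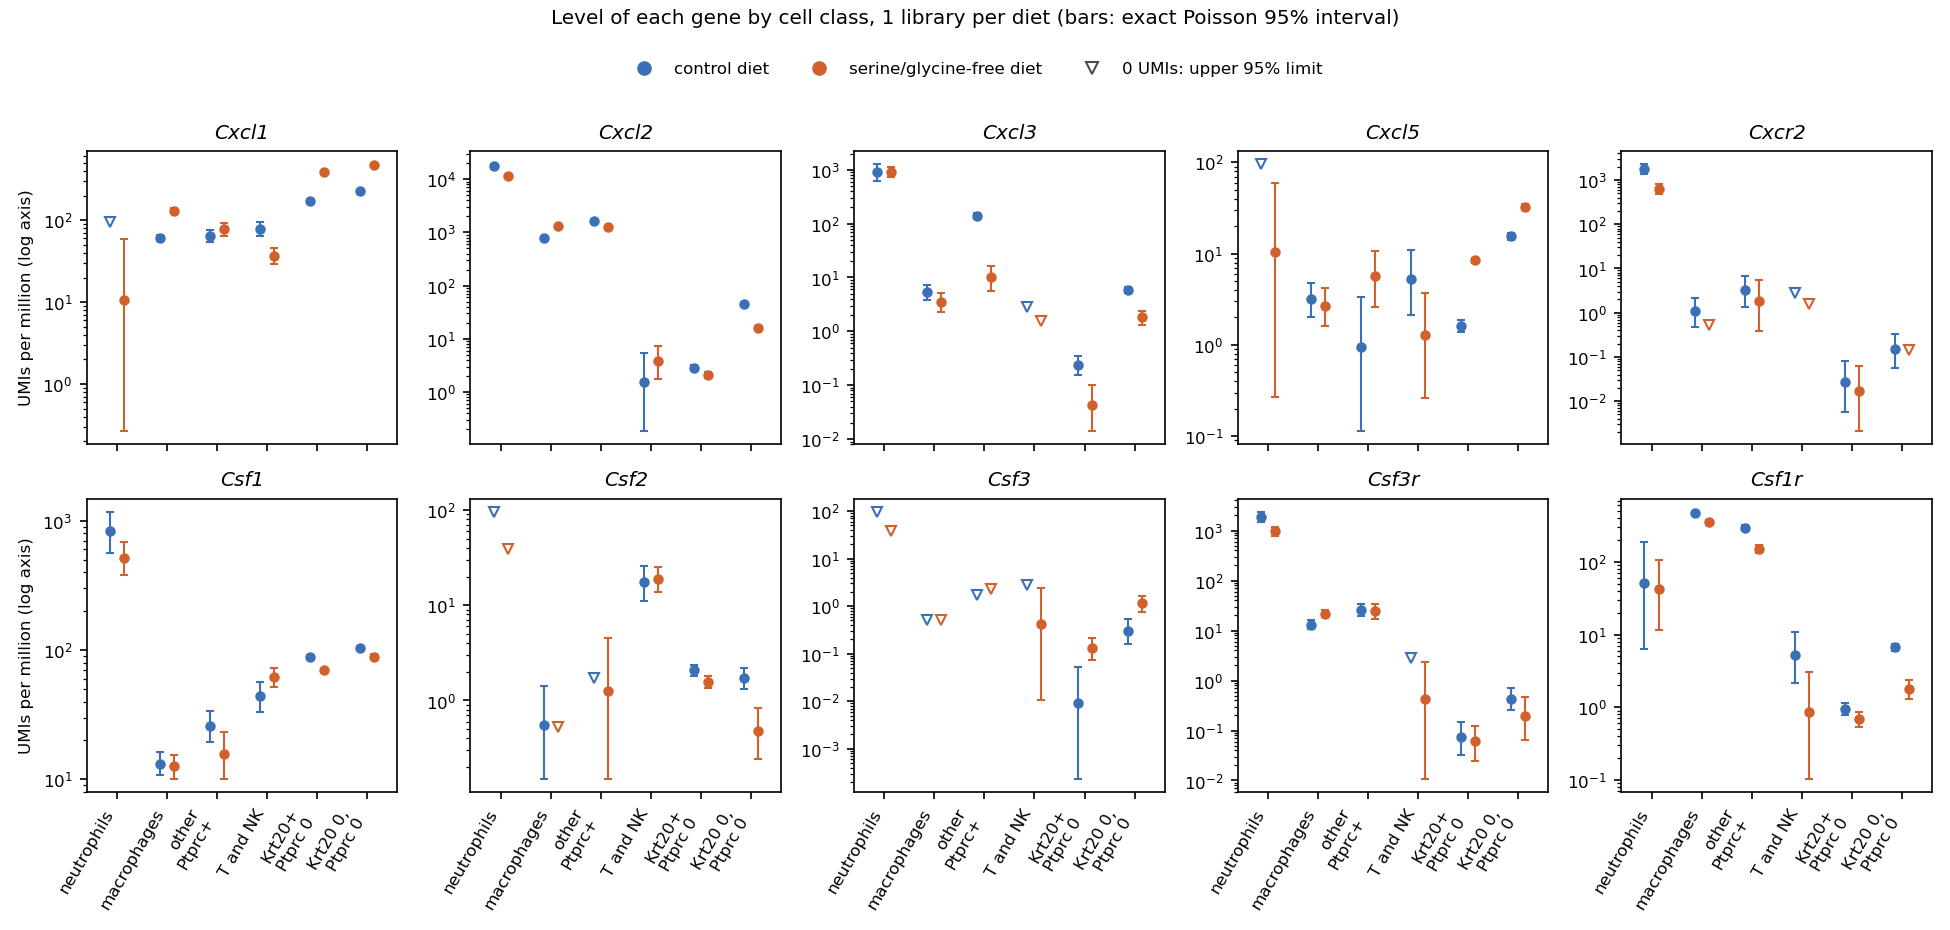
Level of each gene in CPM (vertical log axes, a range of its own per panel) in 6 cell classes, for the control (blue) and serine/glycine-free (orange) library, with exact Poisson 95% intervals; an open triangle marks the upper limit where no UMI was seen. Cxcl1 and Cxcl5 stand higher and Csf1 lower in the serine/glycine-free library in both Ptprc-negative classes, and Cxcl2 is at 793 CPM or more in neutrophils, macrophages and other Ptprc-positive cells only.

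Krt20-positive cells were next divided by Car9, carbonic anhydrase 9, a target of hypoxia-inducible factors. Cells with at least 2 Car9 UMIs numbered 334 in the control library and 868 in the serine/glycine-free library, and they were set against the 3487 and 3395 cells with none. In cells with Car9, 7 of 8 measured hypoxia genes were higher by 1.5-fold or more in both libraries (Pgk1, a glycolytic enzyme, had ratios of 3.17 and 2.97), and the other gene, Adm, was lower by that fold in the control library. Cxcl1 was lower in cells with Car9, at 134.4 CPM (1273 UMIs) against 175.7 CPM in the control library (ratio 0.765, 0.722 to 0.810). In the serine/glycine-free library it was at 291 CPM (7700 UMIs) against 423 CPM, a ratio of 0.689 (0.672 to 0.707). Along 4 bins of Car9 UMIs the level fell from 423 through 353 and 309 to 278 CPM in the serine/glycine-free library. In the control library it was 175.7, 146.9, 160.7 and 99.2 CPM, with the lowest level again at 4 or more UMIs.

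Csf1 followed Cxcl1, at 64.4 against 90.7 CPM (ratio 0.710, 0.653 to 0.771) in the control library and 55.9 against 73.6 CPM (ratio 0.759, 0.716 to 0.804) in the other. Csf2 had 7 and 27 UMIs in the cells with Car9, with ratios of 0.350 (0.139 to 0.735) and 0.595 (0.378 to 0.904). Cxcl5 had no common direction. Its ratio was 0.582 (0.274 to 1.10) in the control library, from 10 UMIs in cells with Car9, and 1.34 (1.16 to 1.55) in the serine/glycine-free library, where it became 0.983 with 4 or more Car9 UMIs required and 1.06 (0.915 to 1.23) within cells of 3 or more Lum plus Dcn UMIs. The difference between the libraries was not tested. Among all genes, 19.4% differed by 1.5-fold or more by Car9 in the control library and 20.7% in the serine/glycine-free library. Most of these were lower with Car9: 15.2% lower and 4.22% higher in the control library, 17.9% and 2.74% in the other. The median log2 ratio over all genes was -0.17 and -0.217, so lower levels with Car9 were not particular to the members. Of the members with enough UMIs, 3 of 7 passed in the control library (Cxcl3, Cxcl5 and Csf2) and 2 of 6 in the other (Cxcl2 and Csf2), all lower with Car9. For control Cxcl3 this rests on 1 against 25 UMIs, and its ratio of 0.384 (0.00935 to 2.35) turned to 2.42 once doublet scores above 0.25 were left out. The interval of control Cxcl5 includes 1. Cxcl1 and Csf1 did not reach the fold in either library. Median depth was 25614 UMIs in control cells with Car9 and 25029 in those without, and 27470 against 21428 in the serine/glycine-free library. With every cell thinned to 10000 UMIs, the mean number of Cxcl1 UMIs was 1.30 with Car9 and 1.83 without in the control library, and 3.11 and 4.56 in the other. For Csf1 the means were 0.601 and 0.922, and 0.559 and 0.721, so both genes were lower with Car9 at equal depth too.

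The second division used Lum and Dcn, which encode the matrix proteoglycans lumican and decorin and are textbook fibroblast genes. Krt20-positive cells with at least 3 UMIs of the pair numbered 1757 and 2176, against 1671 and 1810 with none. Cxcl5 was almost confined to them. It stood at 3.30 CPM (165 UMIs) against 0.0993 CPM (4 UMIs) in the control library, 33.2 times as high (12.7 to 123). In the serine/glycine-free library the levels were 16.2 CPM (950.0 UMIs) and 0.430 CPM (18 UMIs), a ratio of 37.6 (23.7 to 63.8). Requiring 3 or more Krt20 UMIs left the direction and lowered the ratios to 10.7 and 18.2. Within the cells with Lum and Dcn most of the signal sat at the top of the range: cells with 30 or more UMIs of the pair, 230 and 590 cells, had Cxcl5 at 19.3 CPM (16.0 to 23.0) and 55.3 CPM (51.5 to 59.3).

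Cxcl1 differed less along the same axis, at 249 and 567 CPM in those cells and 156.2 and 333 CPM in the cells with none. The rise was not steady: Cxcl1 stood at 167.5 and 400.5 CPM with 1 to 2 UMIs of the pair and at 154.1 and 352.8 CPM with 3 to 9. Over all cells with 3 or more UMIs its ratios were 1.16 (1.13 to 1.20) and 1.27 (1.24 to 1.29). For Csf1 they were 1.28 (1.22 to 1.34) and 1.37 (1.31 to 1.44), with levels of 95.1 against 74.5 CPM and 78.3 against 57.0 CPM. Csf2 went the other way, at 1.10 against 3.25 CPM (ratio 0.338, 0.242 to 0.467) and 1.06 against 2.46 CPM (ratio 0.429, 0.308 to 0.594). Summed over cells with 3 or more UMIs of the pair, Cxcl5, Cxcl1 and Csf1 were thus higher and Csf2 lower, in both libraries. For Cxcl1 in the control library this rests on cells with 10 or more UMIs, since cells with 3 to 9 were not above the cells with none.

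Other fibroblast markers moved with the same axis. In cells with 30 or more Lum plus Dcn UMIs Pdgfra stood at 25.9 and 20.3 CPM, against 2.88 and 2.94 CPM in cells with none, and Col1a1 at 233 and 155.6 CPM against 64.3 and 74.1 CPM. Krt20 was still present there, at 128.6 and 192.5 CPM. Whether these cells are fibroblasts, malignant cells or droplets with both was not tested. Among all genes, 15.2% differed by 1.5-fold or more by Lum plus Dcn in the control library and 17.5% in the other. Of the members with enough UMIs 4 of 7 passed in the control library (Cxcl2, Cxcl3 and Cxcl5 higher, Csf2 lower) and 3 of 6 in the serine/glycine-free library (Cxcl2 and Cxcl5 higher, Csf2 lower). Control Cxcl3 had 26 UMIs over all Krt20-positive cells, of which 1 cell held 19, so no direction is given for it. The ratio of Cxcl2, 2.01 and 1.87, fell to 0.357 and 0.825 without cells that had any S100a8, S100a9 or C1q UMI.

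**Figure D4:**
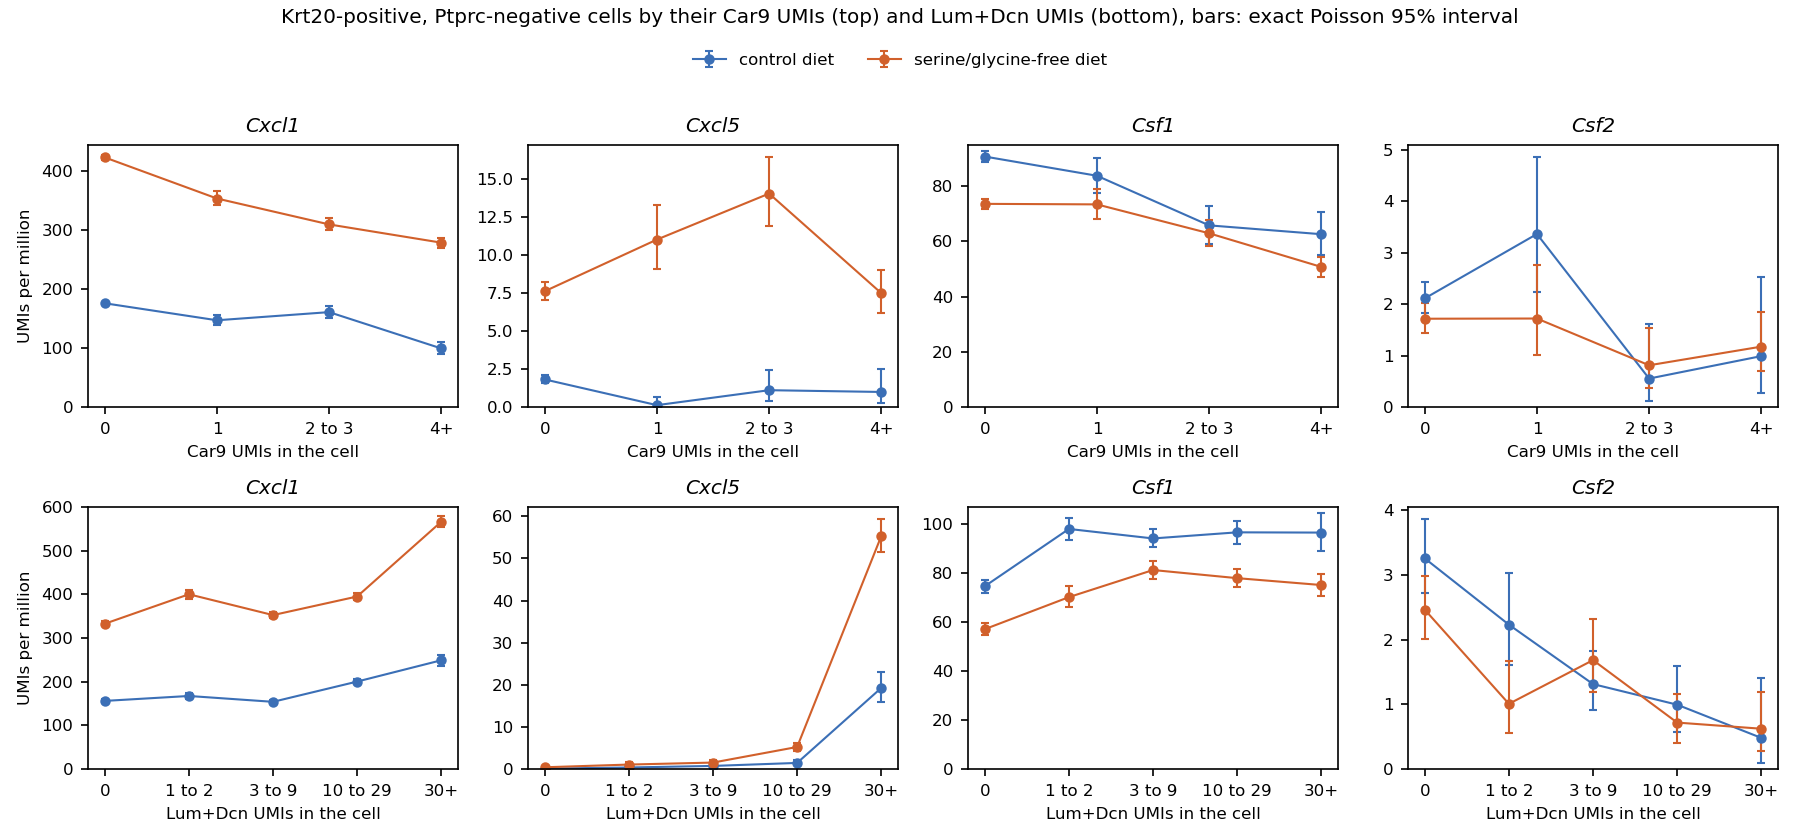
Levels of Cxcl1, Cxcl5, Csf1 and Csf2 in CPM (vertical axes from 0) in Krt20-positive cells binned by Car9 UMIs (top) and by Lum plus Dcn UMIs (bottom), one line per library, with exact Poisson 95% intervals. Cxcl5 climbs to 19.3 and 55.3 in the last Lum plus Dcn bin, and Cxcl1 is lowest at 4 or more Car9 UMIs in both libraries.

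The difference between the diets in Cxcl1 was present in every stratum. It was smallest in cells with Car9 and without Lum and Dcn, 101.3 and 184.0 CPM, a ratio of 1.82 (1.59 to 2.08). It was largest in cells without Car9 and with Lum and Dcn, 188.8 and 458 CPM, a ratio of 2.42 (2.36 to 2.49). Csf1 was lower in the serine/glycine-free library in all 4 strata, with ratios from 0.805 to 0.863. In the smallest stratum, of 132 and 294 UMIs, the interval reached from 0.690 to 1.05. Over the 8 strata of the 2 libraries, the 3 genes whose level was most like that of Cxcl1 were Zfp1 (Pearson r 0.988), Twist1 (0.987) and Trim69 (0.982), of 13010 genes compared. For Csf1 they were Hmgn3 (0.992), Sap18 (0.989) and Grn (0.984). Strata of one library share its depth and its cells' RNA, so these are descriptions.

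In macrophages the serine/glycine-free library had more Cxcl2 and less Csf1r. Cxcl2 stood at 793 CPM (773 to 814) and 1309 CPM (1282 to 1336), a ratio of 1.65 (1.60 to 1.71) from 5744 and 9232 UMIs. After thinning to 1000 UMIs, 30.2% (26.7 to 33.8) and 41.4% (37.4 to 45.4) of macrophages had a Cxcl2 UMI, against 0.424% and 0.299% of T and NK cells. Expression was uneven, with the 5 highest macrophages holding 8.17% and 7.55% of the UMIs. Cxcl1 was lower in number, at 60.8 CPM (55.2 to 66.7) and 131.0 CPM (123 to 140), a ratio of 2.16 (1.92 to 2.42). The control level in macrophages lay below the 78.7 CPM of T and NK cells, but the thinned shares of cells with a UMI were 3.44% (2.19 to 5.11) and 8.79% (6.68 to 11.3), above the 0.847% and 0.599% of T and NK cells. Within macrophages Cxcl2 was found more often beside Cxcl1: after thinning to 2000 UMIs, in 65.9% (49.4 to 79.9) of 41 control cells with Cxcl1 and 35.4% (31.6 to 39.4) of those without. In the serine/glycine-free library the shares were 77.3% (66.2 to 86.2) of 75 cells and 43.1% (38.8 to 47.5). Krt8 and Krt18 together had 8 UMIs in the macrophages of each library. Both genes were scarce in Krt20-positive cells too (Krt18 at 24.05 and 19.58 CPM), so this count says little about RNA from those cells. Dcn had 784 and 726 UMIs in the macrophages. The part of RNA from Ptprc-negative cells in the macrophage Cxcl1 level was not tested.

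Csf1r, the M-CSF receptor that defines the lineage, stood at 469.8 CPM (454 to 486) in control and 360.4 CPM (347 to 375) in serine/glycine-free macrophages, a ratio of 0.767 (0.728 to 0.808) from 3401 and 2542 UMIs. The thinned share of cells with a UMI was 38.0% (34.3 to 41.8) and 29.5% (25.9 to 33.3), against 0.847% and 0% of T and NK cells, and the median cell had 4.32 and 3.13 Csf1r UMIs per 10000. Csf3r was higher, at 13.1 CPM (95 UMIs) and 21.7 CPM (153 UMIs), a ratio of 1.65 (1.27 to 2.16). Csf1 in macrophages was at 13.3 and 12.6 CPM, a ratio of 0.952 (0.705 to 1.28). Cxcr2 had 8 and 0 UMIs, of which 1 lay outside the cells that also met the neutrophil rule, and Csf3 had none in 7239836 and 7053657 UMIs, which allows up to 0.414 and 0.425 CPM.

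Among all genes 13.6% differed by 1.5-fold or more between the diets in macrophages. Of the members 7 had enough UMIs: Cxcl1, Cxcl2 and Csf3r were higher by that fold and Cxcl3, with 39 and 25 UMIs, was lower. The counting interval of the Cxcl3 ratio of 0.658 includes 1, and 5 cells of each library held all of its UMIs, so no direction is given for it. Of 15 measured inflammatory and NF-kB genes 5 were higher and none lower, with a median log2 ratio of 0.27 beside -0.12 over all genes. Nfkbia stood at 392 and 649 CPM (ratio 1.65, 1.58 to 1.73), and Cebpb, a myeloid transcription factor, at 499 and 803 CPM (ratio 1.61, 1.54 to 1.68). Il1b and Tnf did not reach the fold, with ratios of 1.21 and 1.35. Pf4, the platelet factor 4 chemokine that macrophages also make, was lower, at 767 and 503 CPM (ratio 0.656, 0.629 to 0.684). The fibroblast list summed to 251 and 160.5 CPM in the macrophages, so matrix RNA in this class also differed between the libraries, and its part in these ratios was not tested.

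The neutrophils were few and shallow, with 38806 and 94709 UMIs in all and medians of 777 and 1043 UMIs per cell. Cxcl2 took up more of their RNA than in any other class, 17626 CPM (16330 to 18998) from 684 UMIs in the control library and 11340 CPM (10672 to 12039) from 1074 UMIs in the other. The pooled ratio of 0.643 (0.584 to 0.709) did not hold: with every cell weighted equally it was 1.07, and the median cell had 99.7 and 117 Cxcl2 UMIs per 10000. In the serine/glycine-free library the 5 neutrophils with most UMIs held 42126 of the 94709 UMIs with Cxcl2 at 1377 CPM, S100a8 plus S100a9 at 9424 CPM and the fibroblast list at 1638 CPM. The other 50 cells had Cxcl2 at 19322 CPM and S100a8 plus S100a9 at 76527 CPM. In the control library the 5 deepest cells held 5926 UMIs with Cxcl2 at 31050 CPM, and the other 43 cells had it at 15207 CPM. Without these 5 cells of each library the ratio of Cxcl2 was 1.27, so no direction between the diets can be given for it in neutrophils. Cxcl3 stood at 902 CPM (35 UMIs) and 919 CPM (87 UMIs), a ratio of 1.02 (0.681 to 1.55), with 1 cell holding 48.6% and 33.3% of the UMIs. That ratio did not hold either: it was 1.78 without doublet scores above 0.25 and 2.57 without the 5 deepest cells of each library.

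The receptors through which neutrophils read these signals had ratios below 1 under each setting that could be run. Intervals were computed for the main setting only, so counting error is not known for the values closer to 1. Cxcr2 stood at 1778 CPM (1383 to 2250) from 69 UMIs and at 623 CPM (474 to 804) from 59 UMIs, a ratio of 0.350 (0.243 to 0.503). The gap narrowed to 0.551 without the 5 deepest cells of each library. Csf3r, the G-CSF receptor, stood at 1855 CPM (1452 to 2337) and 971 CPM (783 to 1191), a ratio of 0.524 (0.380 to 0.723), or 0.791 without those cells. For the sum of both receptors the ratio was 0.439 (0.346 to 0.556), and 0.680 without the deepest cells. Csf1 was also detected in neutrophils, at 825 and 517 CPM from 32 and 49 UMIs, a ratio of 0.627 (0.394 to 1.01). This Csf1 ratio did not hold: it was 1.056 with every cell weighted equally and 1.029 without doublet scores above 0.25. Without the 5 deepest cells of each library it was 1.065, so no direction is given for it. No Csf2 or Csf3 UMI was seen in neutrophils, which allows up to 77.3 and 31.7 CPM.

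In neutrophils 60.9% of the 1006 genes with at least 20 UMIs differed by 1.5-fold or more, so the 4 of 5 members that did (Cxcl2, Cxcr2, Csf1 and Csf3r, all lower in the pooled sums) are near that background. Cxcl2 and Csf1 did not keep that side, with ratios of 1.066 and 1.056 when every cell was weighted equally. Of 8 measured inflammatory and NF-kB genes 5 were lower by that fold, and of 6 measured hypoxia genes 4 were higher and 1 lower. These counts are to be read beside the same background. Il1b stood at 16595 and 8215 CPM, with a ratio of 0.495 (0.445 to 0.550) over all cells of the class, the deepest ones included. No Il1b value without the deepest cells was computed.

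The Ptprc-positive cells outside the neutrophil, macrophage, T and NK rules, 347 and 198 cells, were a further source of Cxcl2 and Cxcl3. Cxcl2 stood at 1622 CPM (1568 to 1677) and 1256 CPM (1202 to 1313), a ratio of 0.775 (0.733 to 0.819), the opposite side from macrophages. Cxcl3 had 298 UMIs in 16 control cells and 16 UMIs in 7 serine/glycine-free cells, and the 5 highest cells held 79.5% and 87.5% of them. Csf1r stood at 296 and 150.7 CPM, a ratio of 0.508 (0.436 to 0.591), the same side as in macrophages. Monocyte markers were present in these cells, with Ly6c2 at 1722 and 1038 CPM, Plac8 at 1137 and 926, Ccr2 at 361 and 158 and Vcan at 107 and 41.3. Chil3, at 6.57 and 25.6 CPM, went the other way. The class was not named further, and a different mix of cells in the 2 libraries cannot be told apart from a different level per cell.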

How the data were processed

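The authors deposited count matrices of UMIs per gene and barcode. The file headers name Cell Ranger 7.1.0, and per the submitters' processing notes it was Cell Ranger 2.2.2 with build mm10. Receptor contig tables were not used. Barcodes needed 300 genes or more and no more than 20% mitochondrial UMIs, which kept 8262 (97.6%) control and 7913 (98.9%) serine/glycine-free barcodes. Scrublet marked 9 and 0 doublets, so its call did not work and doublets remain. Leaving out 159 and 145 cells with a score over 0.25 was an alternative. Summed UMIs of each class were scaled to all its UMIs. Intervals are exact Poisson for levels, exact conditional binomial for ratios and Clopper-Pearson for shares (scipy 1.17.1). Limits for a count of 0 use 3 UMIs. Cells were thinned to 1000 UMIs, or 10000 or 2000 where stated. All 10 members are named, with up to 4 genes of a list, those with most UMIs, and the 3 genes most like Cxcl1 and Csf1. List genes named outside that rule were chosen after their values were seen. Ratios were tested on simulated counts. Members, lists and markers were chosen with earlier results of these data known.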

Additional observations from a re-analysis of the deposited data

Results flagged for a closer look

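A member stood on opposite sides of 1, beyond counting error, in 3 of 13 pairs of cell classes that could be set side by side, and in 0 of 12 pairs that set the Car9 or Lum plus Dcn split of one library beside that of the other. No such difference was tested. Cxcl2 had a ratio of serine/glycine-free over control of 0.643 in neutrophils and 1.65 in macrophages, and the neutrophil value changed side under other settings. Against the 1.65 of macrophages, Cxcl2 in Krt20-positive cells had 0.743, which rests on 309 and 244 UMIs and turned to 1.29, 1.89 and 3.37 under other settings, so no opposite direction is read from it. Csf3r had 0.524 in neutrophils and 1.65 (1.27 to 2.16) in macrophages. The neutrophil value rests on 72 and 92 UMIs and moved closer to 1 under other settings. It was 0.813 with size factors, 0.855 without doublet scores over 0.25 and 0.791 without the 5 deepest cells of each library.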

How the results depend on the processing

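Of 587 alternative values of 57 ratios, 554 stayed on the same side of 1, 33 did not and 70 moved by over 1.5 times; the cause was not tested. The log2 ratio of size factors less that of totals was -0.64 in neutrophils, -0.11 in macrophages, -0.06 in Krt20-positive cells, and -0.14 (control) and -0.18 (serine/glycine-free) in the Car9 split, so size factors raised every ratio there by that amount. In neutrophils the sum of the Cxcl genes was 0.663, but 1.03 with size factors, 1.09 with cells weighted equally, 1.14 without doublet scores over 0.25, 0.947 with S100a8 plus S100a9 at 1% or more and 1.32 without the 5 deepest cells of each library, an alternative chosen after seeing the data. Under the same settings Csf3r plus Cxcr2 was 0.681, 0.657, 0.711, 0.602 and 0.680, and Cxcl2 alone was 1.07, 1.10 and 1.27 with equal weights, without doublet scores and without the 5 deepest cells. In macrophages Csf1r was 0.831 with size factors, and the Cxcl sum 1.81 with them and 1.53 with equal weights. In Krt20-positive cells the Cxcl sum was 2.38 with size factors, 2.48 with equal weights, 2.22 with 3 or more Krt20 UMIs, 2.32 without S100a8, S100a9 or C1q UMIs and 2.04 over all Ptprc-negative cells, and the Csf sum was 0.827 with size factors. Cxcl2 turned to 1.29 without doublet scores, 1.89 with 3 or more Krt20 UMIs and 3.37 without S100a8, S100a9 or C1q UMIs, and Cxcl3 to 1.01 and 1.20 under the last 2 of these settings. By Car9 the control Cxcl sum was 0.845 with size factors, 0.651 with equal weights, 0.863 with 3 or more Krt20 UMIs, 0.555 with 4 or more Car9 UMIs and 0.627 within Lum plus Dcn at 0, and the Csf sum 0.774 with size factors and 0.622 within Lum plus Dcn at 0. In the serine/glycine-free library the Cxcl sum was 0.794 with size factors, 0.611 with equal weights, 0.678 without S100a8, S100a9 or C1q UMIs, 0.662 with 4 or more Car9 UMIs and 0.489 within Lum plus Dcn at 0. There the Csf sum was 0.859 with size factors, 0.692 with 4 or more Car9 UMIs and 0.671 within Lum plus Dcn at 0, and Cxcl5 turned to 0.983 with 4 or more Car9 UMIs. By Lum plus Dcn the Cxcl sum was 1.07 and 1.16 with equal weights and 1.26 and 1.37 with 6 or more UMIs, and in the serine/glycine-free library 1.27 with 3 or more Krt20 UMIs and 1.26 within Car9 at 0. Cxcl2 turned to 0.212 and 0.758 without doublet scores, 0.357 and 0.825 without S100a8, S100a9 or C1q UMIs, and 0.430 in the control library with 3 or more Krt20 UMIs. The filter of 1000 genes left 0 control neutrophils and gave no value there. No paired analysis was possible because each diet had 1 library, and for the same reason no library could be left out. Neutrophil depth, 38806 and 94709 UMIs, limits every value of that class.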
